A study of Mus musculus with 24 samples.

Results

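Chaperones are proteins that help other proteins fold. The genes described here are 10 chaperones of the mouse: 4 of the mitochondrion (*Hspe1*, *Hspd1*, *Hspa9* and *Trap1*), 5 of the cytosol (*Hsp90aa1*, *Hsp90ab1*, *Hspa8*, *Hsph1* and *Dnajb1*) and 1 of the endoplasmic reticulum (*Hspa5*). They were picked by gene symbol from the 15456 genes of the normalized count table, and all 10 were found, each in a single entry. They had been chosen with the group values of these same mice known. Which comparison they were chosen on is not recorded, so that their fold changes and adjusted p-values describe these mice and are not independent evidence of any change.

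RNA of the medial prefrontal cortex was measured by poly(A) RNA sequencing in 24 male BALB/c mice at postnatal week 11, in 4 groups of 6. Control mice were labelled as untreated, and by the study's methods received the PBS vehicle. The duloxetine group received duloxetine, an antidepressant that inhibits the reuptake of serotonin and noradrenaline, by daily intraperitoneal injection. The *R. flavefaciens* group was given live *Ruminococcus flavefaciens*, an anaerobic gut bacterium, by gavage, and the fourth group received both treatments. The mice were housed in groups and gave 1 library each, and no label names a cage, litter or sequencing batch. Reads recovered from the table numbered 12811413 to 15607343 per mouse. Their medians were 13591497 in control, 14536037 in duloxetine, 13943370 in *R. flavefaciens* and 14621655 in combined mice, and duloxetine and combined mice were deeper than control mice (two-sided exact permutation p = 0.00433 for each). The tissue was a punch of whole cortex, in which fewer cells of a type and less RNA per cell cannot be told apart. It carried the markers of cortical neurons, with a mean summed level of 85562 normalized counts for 6 excitatory neuron genes in the control mice.

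Newly made proteins are bound first by HSP70 proteins, which hold exposed hydrophobic stretches and are driven through cycles of ATP use by J-domain partners such as DNAJB1. HSP90 proteins act later, on clients such as kinases and steroid receptors. Inside the mitochondrion HSPA9 pulls imported chains through the inner membrane, and a barrel of HSP60 (*Hspd1*) with its lid HSP10 (*Hspe1*) folds them, whereas HSPA5, also known as BiP, serves proteins entering the endoplasmic reticulum. Many cytosolic chaperone genes, and the mitochondrial *Hspd1* and *Hspe1*, are known targets of heat shock factor 1, and *Hspa5* is a classical target of the unfolded protein response.

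*Hspe1* and *Hspd1* lie head to head on chromosome 1 of GRCm38. *Hspd1* runs on the minus strand from 55077835 to 55088243 and *Hspe1* on the plus strand from 55088132 to 55091307, so that their annotated ends overlap. Neither the strand setting of the counting nor the counting program is given in the sources used here, and reads in the overlap could have been split between the 2 genes. Promoter windows of 300 bases, from 250 bases before to 50 after a start, were held by the RefSeq table (GRCm38.p6) for 6 of the 10 members, in 9 windows. The *Hspe1* window shares 285 bases with an *Hspd1* window whose start lies inside the annotated *Hspd1* gene. It shares 4 bases with the *Hspd1* window at the annotated start, 55088243. The sequences below are the 250 bases before the start of *Hspe1* (chr1:55087898-55088147, plus strand), shown because of this shared stretch, and of *Hspa5* (chr2:34771840-34772089, plus strand), the only endoplasmic reticulum member. Capitals mark the GAA and TTC units of heat shock element pairs in the first and both ends of the endoplasmic reticulum stress element in the second.

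Hspe1: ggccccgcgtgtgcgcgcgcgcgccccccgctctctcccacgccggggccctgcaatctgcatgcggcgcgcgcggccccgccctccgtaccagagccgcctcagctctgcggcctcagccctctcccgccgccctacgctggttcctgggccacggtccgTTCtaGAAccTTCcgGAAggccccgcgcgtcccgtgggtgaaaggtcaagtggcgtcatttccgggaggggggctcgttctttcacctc

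Hspa5: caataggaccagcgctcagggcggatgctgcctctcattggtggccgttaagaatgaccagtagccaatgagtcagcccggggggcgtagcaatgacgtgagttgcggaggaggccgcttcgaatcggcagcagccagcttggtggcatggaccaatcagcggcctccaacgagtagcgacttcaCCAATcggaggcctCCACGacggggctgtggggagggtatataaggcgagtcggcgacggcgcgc

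Letters searched on both strands were GAANNTTC and TTCNNGAA, which overlap where GAA and TTC units alternate, and CCAAT followed by 9 bases and CCACG. The stretch shared by the *Hspe1* window and the *Hspd1* window inside the gene held GAANNTTC in 1 place and TTCNNGAA in 2. The first unit lay 89 bases before the start of *Hspe1*. Among all 32851 windows, GAANNTTC was present in 7.86%, TTCNNGAA in 8.52% and at least 1 of the pair in 15.1%. Both *Hsph1* windows, which overlap, held the same numbers of each pair. In the *Hspa5* window the endoplasmic reticulum stress element began 65 bases before the start, and 0.119% of all windows held this element. No window of *Dnajb1* or *Trap1* contained any of these letters, nor did the window at the annotated start of *Hspd1*.

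By level per length of the principal transcript, the 10 genes spanned a wide range. *Hsp90ab1*, the constitutive cytosolic HSP90, was highest at 10593 normalized counts per kilobase over the 24 mice, followed by its inducible relative *Hsp90aa1* at 5837 and by the constitutive HSP70 gene *Hspa8* at 2759. *Hsph1*, a nucleotide exchange factor for HSP70, stood at 1491 and *Hspa5* at 1366. The mitochondrial genes *Hspa9*, *Hspd1* and *Hspe1* stood close together at 895, 865 and 825 per kilobase. *Dnajb1*, at 332, and *Trap1*, the mitochondrial HSP90, at 325, were the lowest. The order of the 5 highest genes was the same in the control and combined groups, and their group levels did not cross, apart from *Hsph1* and *Hspa5*, which changed places in the *R. flavefaciens* group (1499 and 1542 per kilobase). Members such as the HSP90 pair and *Hspa8* have close copies or pseudogenes in the genome, and how reads shared with these were counted is not stated.

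**Figure D1:**
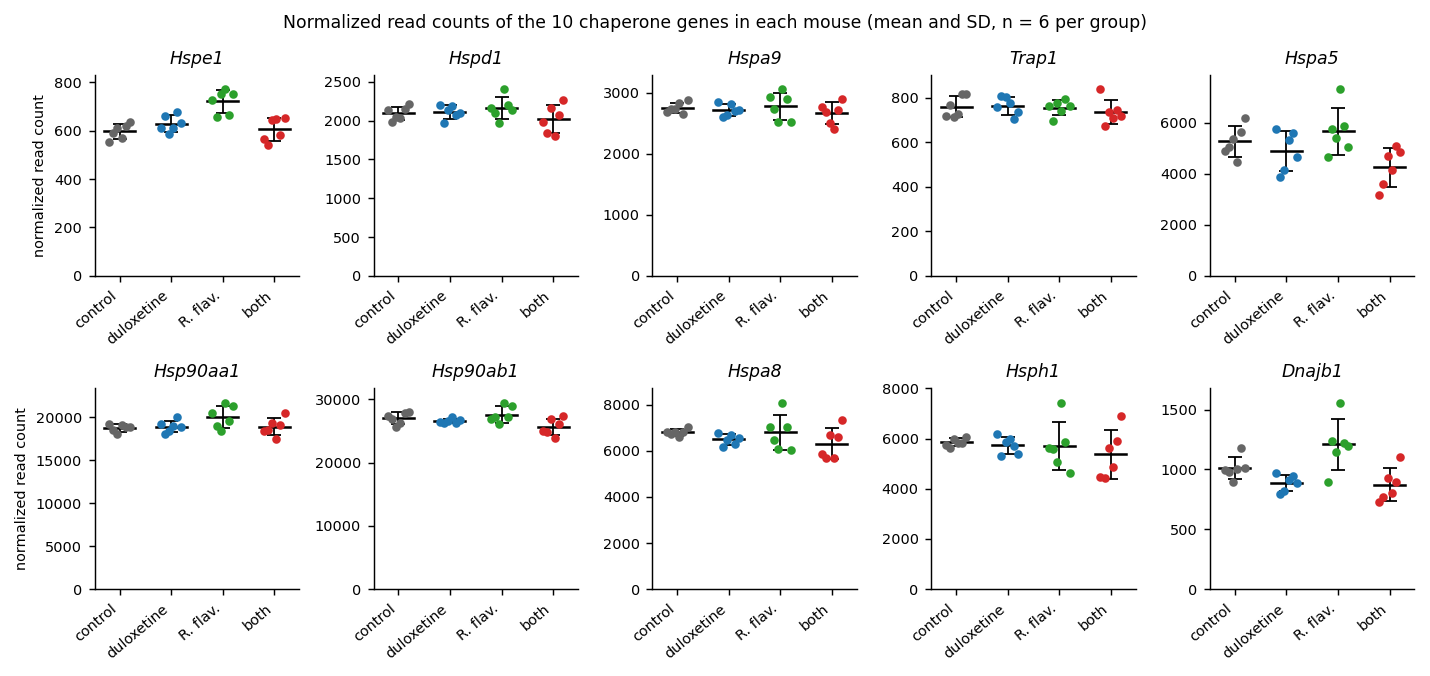
Normalized read counts (vertical axis, from 0) of each chaperone gene in each mouse (points) of the control, duloxetine, *R. flavefaciens* (R. flav.) and combined (both) groups, with the group mean and SD (n = 6). The *Hspe1* points of the *R. flavefaciens* group lie above every control point, and *Hspa5* and *Dnajb1* are lowest on average in the combined group.

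The first comparison asked how the brain of bacterium-treated mice differed from that of control mice. *Hspe1* was the member that separated these groups. In control mice it ranged from 554 to 637 normalized counts with a median of 601, and in *R. flavefaciens* mice from 659 to 771 with a median of 741. All 6 treated mice were above all 6 control mice. The means were 597 ± 31.7 and 722 ± 48.0 (SD, n = 6 each), a log2 fold change of 0.27 (SE 0.06, limma adjusted p = 0.0687 over all genes), which did not pass the threshold of 0.05. *Hspe1* was the only 1 of the 10 whose groups did not overlap here, and among all 14974 genes tested 1.62% had groups that did not overlap. *Hspd1*, its partner in the folding chamber, had a median of 2091 in control and 2147 in treated mice, with the ranges 1979 to 2210 and 1970 to 2402 overlapping (log2 fold change 0.04, SE 0.05, limma adjusted p = 0.690).

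*Dnajb1* ranged from 893 to 1176 normalized counts in control mice (median 1000, mean 1009 ± 92.4, SD, n = 6) and from 898 to 1558 in *R. flavefaciens* mice (median 1210, mean 1210 ± 212). Mouse 9-1 was the highest and mouse 7-2 the lowest of the treated mice, and 4 of the 6 were above every control mouse. The log2 fold change was 0.25 (SE 0.10, limma adjusted p = 0.164). *Hsp90aa1* was 18749 ± 420 in control and 20070 ± 1286 in treated mice (SD, n = 6 each; log2 fold change 0.10, SE 0.05, limma adjusted p = 0.251), and the groups overlapped. The log2 fold changes of *Hspa9*, *Trap1*, *Hsp90ab1*, *Hspa8* and *Hsph1* lay between -0.05 and 0.03. *Hspa5* stood at 0.10 (SE 0.12).

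None of the 10 members passed the adjusted threshold in this comparison, in which 0.0267% of all genes did. At an unadjusted p under 0.05, 3 members were higher and 0 lower, against 8.86% of all genes higher and 10.8% lower. The 4 mitochondrial members had a median log2 fold change of 0.03, the 5 cytosolic members also 0.03, and all genes 0.00. DESeq2 on read counts recovered from the table called *Hspe1* (adjusted p = 0.00527), at a setting that called 497 of all genes, against 4 by limma. So did limma with a random block on the first number of the mouse label (adjusted p = 0.0390, estimated correlation within blocks -0.0451), with 221 of all genes called. Limma without mouse 8-3, 9-1 or 9-2 called it too, with 427, 239 and 616 of all genes. Each first number of the labels occurs within a single group, so that no block spans groups, and the labels do not say what the number stands for. A negative correlation within such blocks narrows the SE of a difference between groups.

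The size of the *Hspe1* difference moved with transcript length. Across genes, the log2 fold change of *R. flavefaciens* against control fell with transcript length (Spearman rho -0.474 over 14958 genes, which are not independent replicates), and *Hspe1*, at 774 bases, has the shortest transcript of the 10. The 596 genes with transcripts of 600 to 950 bases had a median log2 fold change of 0.16, and 84.4% of them were below *Hspe1*. With a smooth trend on length taken out of each mouse, the value for *Hspe1* was 0.11 (limma adjusted p = 0.476) and the groups overlapped. What gave rise to the length trend was not tested. Markers of other cells also differed in these mice: 4 of 6 microglial genes and 4 of 5 red blood cell genes were higher at an unadjusted p under 0.05, with 0 of either passing after adjustment. Of the inhibitory neuron genes 3 of 6 were higher by the same measure, as were 1 of 6 astrocyte and 1 of 3 choroid plexus genes (*Folr1*, *Kcnj13* and *Aqp1* are not in the table), 1 of 6 excitatory neuron genes was lower, and 0 of 6 oligodendrocyte, endothelial or striatal neuron genes differed. The summed red blood cell level was 349 ± 65.7 normalized counts in control and 598 ± 204 in treated mice (SD, n = 6 each), most of it *Hbb-bs*, and the part of these cells in the chaperone values was not tested.

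The second comparison, of mice given both treatments with mice given the bacterium alone, asks what duloxetine added. Here all 10 members had negative log2 fold changes, while 49.5% of all genes did. All 10 were also negative in both treatments against duloxetine alone (51.2% of all genes) and for duloxetine averaged over the bacterium (48.7%). These comparisons share mice, and many of the members moved together between mice, so that their signs are not independent of each other. After quantile normalization *Hspa9*, *Hsp90aa1* and *Hspa8* were above 0 against duloxetine alone and *Trap1* for the average, and after rescaling to the 75th percentile *Hsp90aa1* and *Trap1* were, by at most 0.01. Leaving out a mouse also turned *Hsp90aa1* or *Dnajb1* positive against duloxetine alone. The 2 members that passed the threshold were *Dnajb1* and *Hspe1*. The share of all genes that passed was 2.23%. *Dnajb1* ranged from 725 to 1108 normalized counts under both treatments (median 849, mean 872 ± 138, SD, n = 6), so that 4 of the 6 mice lay below every mouse given the bacterium alone. Its log2 fold change was -0.47 (SE 0.10, limma adjusted p = 0.0171). The groups overlapped through mouse 7-2, whose 898 counts lay within the range of the combined group.

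*Hspe1* ranged from 541 to 651 normalized counts under both treatments (median 612, mean 605 ± 48.0, SD, n = 6), and every mouse was below the lowest mouse given the bacterium alone. The log2 fold change was -0.25 (SE 0.06, limma adjusted p = 0.0198). It was again the 1 member of 10 without overlap, a property of 1.44% of all genes, and the gap between the groups closed after quantile normalization, rescaling to the 75th percentile or removal of the length trend. With that trend removed the log2 fold change was -0.20 (limma adjusted p = 0.0683). *Hspe1* levels of the combined group overlapped those of control mice (log2 fold change 0.02, SE 0.06).

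*Hspa5* ranged from 3152 to 5069 normalized counts under both treatments (median 4423, mean 4250 ± 760, SD, n = 6) and from 4644 to 7302 with the bacterium alone (median 5562, mean 5663 ± 921). Of the 6 mice given both, 3 were below every mouse given the bacterium alone. The log2 fold change was -0.42 (SE 0.12, limma adjusted p = 0.0537), just outside the threshold, and it was inside by DESeq2 on recovered reads (adjusted p = 0.0240), by limma with a random block on the first number of the mouse label (0.0390, at an estimated correlation within blocks of -0.0451), after quantile normalization (0.0421) and with the length trend removed (0.0488). *Hspa5* stayed outside by edgeR (adjusted p = 0.0575) and in a fit of the 2 groups alone (limma adjusted p = 0.156). It passed in 5 of the 24 fits that each left out a mouse. The log2 fold changes of the other 7 members lay between -0.11 and -0.04. At an unadjusted p under 0.05, 4 members were lower and 0 higher, against 9.9% and 9.76% of all genes. The median was -0.08 for the 4 mitochondrial and -0.11 for the 5 cytosolic members, and 0.00 for all genes.

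Single mice carried part of this. Without mouse 11-3 of the combined group, neither *Dnajb1* (log2 fold change -0.44, limma adjusted p = 0.0569) nor *Hspe1* (-0.22, adjusted p = 0.0650) passed, and the number of all genes called fell from 334 to 47. In a fit of these 2 groups alone, 0 of 10 members and 0 of all genes passed (limma adjusted p = 0.117 for *Dnajb1* and 0.127 for *Hspe1*). The SEs and calls of the main fit pool the spread over all 4 groups. For *Dnajb1* the SD on the log2 scale was 0.254 with the bacterium alone and 0.220 with both treatments. It was 0.128 in control and 0.114 in duloxetine mice. Mouse 8-4, of the bacterium group, stood apart by its summed choroid plexus markers (765 normalized counts, against 27.7 to 119 in the other 5) and striatal neuron markers (4720 against 1113 to 2023), and mouse 11-4, of the combined group, by its striatal neuron markers (2748 against 1216 to 1597). Without mouse 8-4 the log2 fold changes of *Dnajb1* and *Hspe1* were -0.48 and -0.24. Over all mice of this comparison, 2 of 6 astrocyte genes and 1 of 6 excitatory neuron genes were higher and 2 of 6 inhibitory neuron genes and 1 of 6 endothelial genes lower at an unadjusted p under 0.05, and 0 marker genes passed after adjustment. Their part in the chaperone values was not tested.

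**Figure D2:**
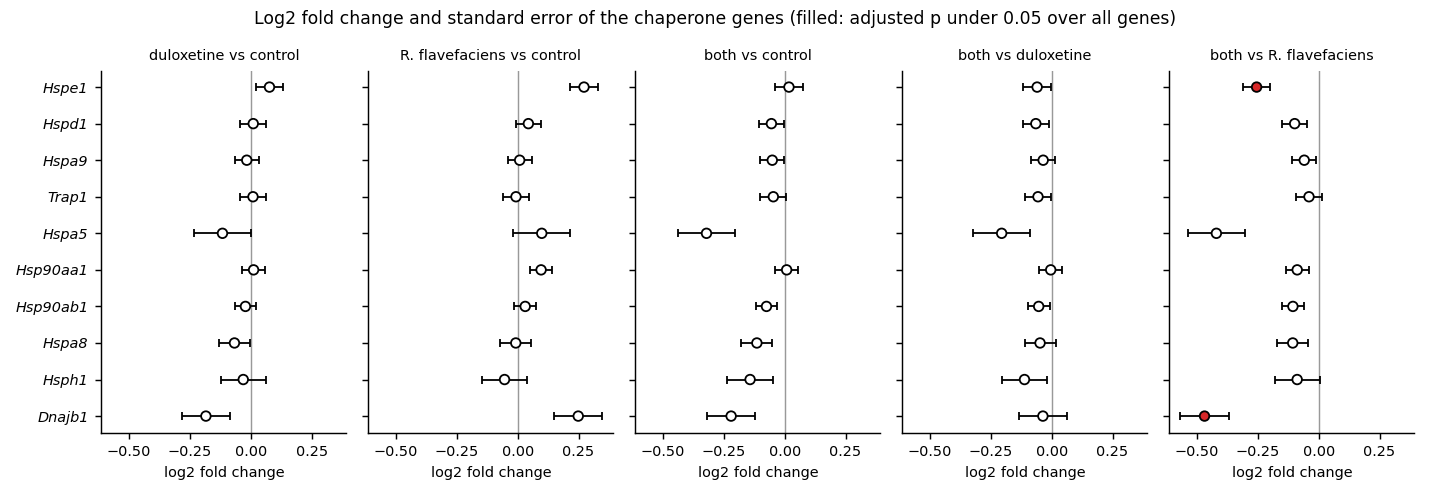
Log2 fold change (horizontal axis) with its standard error for each chaperone gene in the 5 comparisons of group pairs, from limma on 14974 genes, filled where the adjusted p-value was under 0.05. Filled points are *Hspe1* and *Dnajb1* in the comparison of both treatments with the bacterium alone, and all 10 points lie left of 0 in that panel and in the panel of both treatments against duloxetine.

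Duloxetine alone left *Hspe1* at 630 ± 34.9 and *Hspd1* at 2109 ± 86.0 normalized counts (SD, n = 6 each), within the range of the controls for most mice. *Dnajb1* ranged from 794 to 971 in duloxetine mice, with 3 of 6 below every control mouse (log2 fold change -0.18, SE 0.10, limma adjusted p = 1.00), and *Hspa8* from 6158 to 6792, with 4 of 6 below every control mouse (-0.07, SE 0.06). No member passed, nor did any gene (0% of all genes), and 0 members were under an unadjusted p of 0.05, against 3.83% of all genes. DESeq2 called 1 gene and edgeR 0. Of the marker genes, 4 of 6 microglial genes were higher at an unadjusted p under 0.05 (median log2 fold change 0.18) and 0 genes of the other 8 cell types differed, with 0 passing after adjustment, and their part in the chaperone values was not tested.

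Both treatments against control gave *Hspa5* its lowest group mean. Its levels were 5263 ± 614 in control mice (4442 to 6196) and 4250 ± 760 under both (SD, n = 6 each), with 3 of 6 mice below every control (log2 fold change -0.32, SE 0.12, limma adjusted p = 0.188). *Dnajb1* was at -0.22 (SE 0.10, limma adjusted p = 0.263) and *Hsp90ab1* at -0.07 (SE 0.04). None of the 10 members passed, where 0.1% of all genes did. At an unadjusted p under 0.05, 0 members were higher and 2 lower, against 8.08% and 8.73% of all genes. Against duloxetine alone, the combined group had 0 members past the threshold (0% of all genes) and 0 under an unadjusted p of 0.05 (5.9% of all genes). DESeq2 called 1 gene there and edgeR 0. *Hspa5* was at -0.20 (SE 0.12) there, and 1 of 6 excitatory neuron marker genes was lower at an unadjusted p under 0.05, with 0 passing after adjustment. Of the marker genes, 5 of 5 red blood cell, 5 of 6 microglial, 3 of 6 astrocyte, 2 of 6 endothelial, 1 of 6 inhibitory neuron and 1 of 3 choroid plexus genes were higher in the combined group than in control mice at an unadjusted p under 0.05, with 0 passing after adjustment, and their part in the chaperone values was not tested.

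Averaged over the bacterium, duloxetine had 1 member past the threshold, where 1.03% of all genes passed. This was *Dnajb1* (log2 fold change -0.33, SE 0.07, limma adjusted p = 0.0243). Without control mouse 3-1 or mouse 11-3 it did not pass (adjusted p = 0.0559 and 0.0543). Among the markers, 2 astrocyte, 2 microglial, 1 endothelial and 1 excitatory neuron gene were higher and 1 inhibitory neuron and 1 endothelial gene lower at an unadjusted p under 0.05, with 0 passing after adjustment, and their part was not tested. In all, 3 members were lower and 0 higher at an unadjusted p under 0.05 (7.49% and 7.44% of all genes), the other 2 being *Hspa5* (-0.27, SE 0.08, limma adjusted p = 0.11) and *Hspe1* (-0.09, SE 0.04, limma adjusted p = 0.286). Averaged over duloxetine, the bacterium had 0 members past the threshold (0.0267% of all genes), and 1 member, *Hspe1*, under an unadjusted p of 0.05 (18.1% of all genes; log2 fold change 0.11, SE 0.04). With the length trend removed that value was -0.00. Of the markers, 4 of 5 red blood cell, 3 of 6 microglial, 2 of 6 inhibitory neuron, 1 of 6 astrocyte and 1 of 3 choroid plexus genes were higher and 2 of 6 excitatory neuron genes lower at an unadjusted p under 0.05, with 0 passing after adjustment, and their part was not tested.

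The interaction term asks whether the effect of duloxetine differed with and without the bacterium. It was negative for all 10 members, against 50.5% of all genes, and furthest from 0 for *Hspe1* (-0.33 on the log2 scale, SE 0.08, limma adjusted p = 0.639), *Hspa5* (-0.30, SE 0.17) and *Dnajb1* (-0.28, SE 0.14). With the length trend removed *Hspe1* was at -0.22, nearer to 0 than *Hspa5* (-0.32) and *Dnajb1* (-0.28). Without mouse 9-1 *Hspa8* and *Hsph1* were above 0, at 0.01 and 0.02. No member and 0% of all genes passed after adjustment, and 1 member, *Hspe1*, was under an unadjusted p of 0.05 (7.53% of all genes). DESeq2 and edgeR called 0 genes as well. Of the marker genes, 1 of 6 microglial genes was lower at an unadjusted p under 0.05, with 0 passing after adjustment, and its part was not tested. The control mice enter several of these comparisons, so their values are not independent of each other. Nor are the signs of members that moved together between mice.

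How the members varied between mice of the same group is a measure that the group means do not enter. After each group's mean was taken off the log2 values, 7 genes moved together over the 24 mice: *Hspa8*, *Hsph1*, *Hspd1*, *Hsp90ab1*, *Hsp90aa1*, *Dnajb1* and *Hspa5*. Their 21 pairs had Pearson correlations from 0.416 to 0.944, with a median of 0.657, and 18 of the 21 passed an adjusted p of 0.05 over the 45 pairs of members (permutation of mice within groups). These 7 were grouped after their correlations were seen. Some of the pairs rested on few mice. Without the 2 farthest mice, r went from 0.602 to 0.271 for *Hspa8* and *Dnajb1*, from 0.562 to 0.288 for *Hsp90ab1* and *Hsph1*, from 0.681 to 0.4004 for *Hsph1* and *Dnajb1*, and from 0.649 to 0.432 for *Hspd1* and *Dnajb1*. *Hspa8* and *Hsph1* were the closest pair (r = 0.944, Spearman rho = 0.916, permutation adjusted p = 0.000225, r = 0.886 without the 2 mice farthest from the median of *Hspa8*). *Hspd1*, a mitochondrial protein, followed the cytosolic *Hspa8* (r = 0.891, rho = 0.850, permutation adjusted p = 0.000225, 0.832 without the 2 farthest mice). *Hspa5* was closest to *Dnajb1* among the members (r = 0.778, rho = 0.815, permutation adjusted p = 0.000563, 0.697 without the 2 farthest mice).

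*Hspe1* stood outside this group. With *Hspd1*, its head-to-head neighbour, its r was 0.192 (rho = 0.172, permutation adjusted p = 0.567), and 0.0392 without the 2 mice farthest from the median of *Hspe1*. None of its 9 pairs passed, with correlations from -0.172 to 0.383. *Trap1* had correlations from -0.191 to 0.167, again with 0 of 9 passing. *Hspa9* followed *Hspa8* (r = 0.716, permutation adjusted p = 0.0155), *Hsph1* and *Hspd1* but not the rest, with 3 of its 9 pairs passing. *Hspe1* and *Trap1* had the lowest mean normalized counts of the 10, 639 and 754, and the part of read number in their correlations was not tested.

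**Figure D3:**
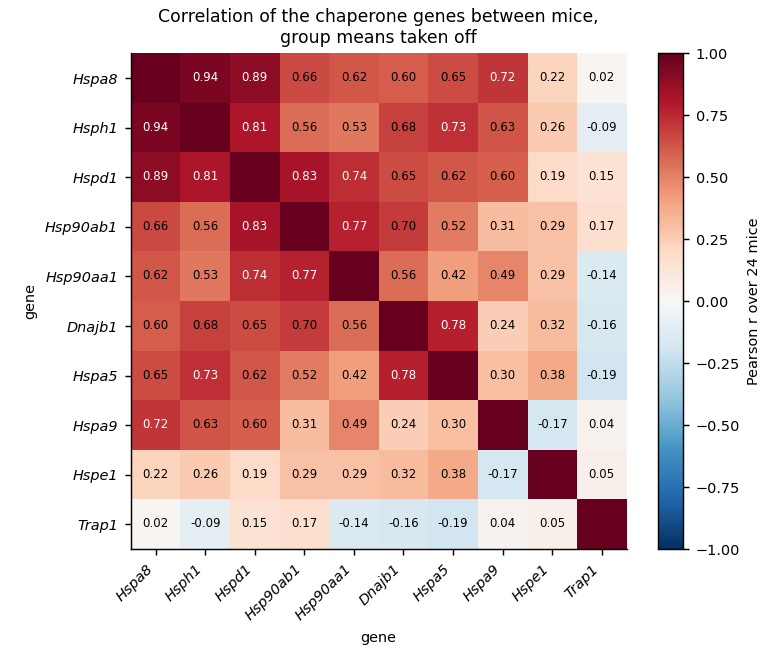
Pearson correlation of each pair of chaperone genes over 24 mice, on log2 values with the group means taken off (colour scale from -1 to 1, value in each cell). The block at the upper left holds the 7 genes with correlations from 0.416 to 0.944, while the row of *Trap1* stays pale and that of *Hspe1* reaches no more than 0.383.

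The genes most like 4 of the members by the same measure were looked up over all tested genes. For *Hspa5* they were *Pdia3* (r = 0.939), *Pdia4* (r = 0.921) and *Pdia6* (r = 0.905), disulfide isomerases of the endoplasmic reticulum. For *Hspd1* they were *Dnaja1* (r = 0.904), *Hspa8* (r = 0.891) and *Stip1* (r = 0.854), a J-domain protein, an HSP70 and the adaptor between HSP70 and HSP90, all of the cytosol. *Hsp90aa1* was most like *Zc3h15* (r = 0.850) and the chaperonin subunits *Cct2* (r = 0.819) and *Cct6a* (r = 0.804). *Hspe1* was most like *Wdr46* (r = 0.787), *Map3k8* (r = 0.75) and the mitochondrial ribosomal protein gene *Mrps18a* (r = 0.741), with no chaperone among them. Each r is over 24 mice and was picked as the highest over all other genes tested, so it is a description.

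The widest deviations came from few mice, though mice of every group lay above or below their group mean for most members, such as control mouse 3-3, above for all 10. Mouse 9-1 of the *R. flavefaciens* group was above its group mean for 9 of the 10 members, by 0.40 on the log2 scale for *Hsph1*, 0.38 for *Hspa5* and 0.38 for *Dnajb1*. Mouse 12-4 of the combined group was above its group mean for 9 of 10 as well, by 0.38 for *Hsph1* and 0.36 for *Dnajb1*. The largest deviations lay below the group mean. They were -0.41 for *Dnajb1* in mouse 7-2 of the *R. flavefaciens* group and -0.41 for *Hspa5* in mouse 10-2 of the combined group. By number of members, mouse 12-2 was above its group mean for 1 of 10, *Hspe1*, and mouse 11-3 for 1 of 10, *Hspa9*. Control mouse 2-1 was likewise above its group mean for 1 of 10, *Trap1*. The mice with low *Hspa8* in both bacterium groups included those with the highest summed red blood cell markers. These markers reached 988 normalized counts in mouse 8-4, 1090 in mouse 11-3 and 1062 in mouse 12-2, where the difference of *Hspa8* from the group mean was -0.15, -0.14 and -0.15 on the log2 scale, but mouse 9-3, at -0.16, had 627, mouse 10-2, at -0.10, had 275, the lowest of its group, and duloxetine mouse 6-3, at 0.01, had 984. Oligodendrocyte markers varied widely as well. Their sum was 12830 in mouse 9-1 and 11506 in mouse 12-4, among the lowest of their groups, and 45393 in mouse 8-4 and 51301 in mouse 12-2, the highest of theirs. Other mice did not follow this order. Mouse 7-2, with 12095, had the lowest *Dnajb1* of its group, and mouse 11-4, with 44905, was above its group mean for 9 of the 10 members. None of the 6 oligodendrocyte genes differed between groups in any comparison at an unadjusted p under 0.05. In the combined group, astrocyte, microglial and endothelial sums were highest in mice 12-2 and 11-3 and lowest in mouse 12-4. For astrocytes they were 88997, 82496 and 63829, for microglia 5619, 5125 and 3906, and for endothelial cells 4448, 3693 and 2803. Mouse 9-1, however, had the highest astrocyte sum of the *R. flavefaciens* group, 73267. The part of blood, oligodendrocyte or other cell content in the shared movement was not tested.

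**Figure D4:**
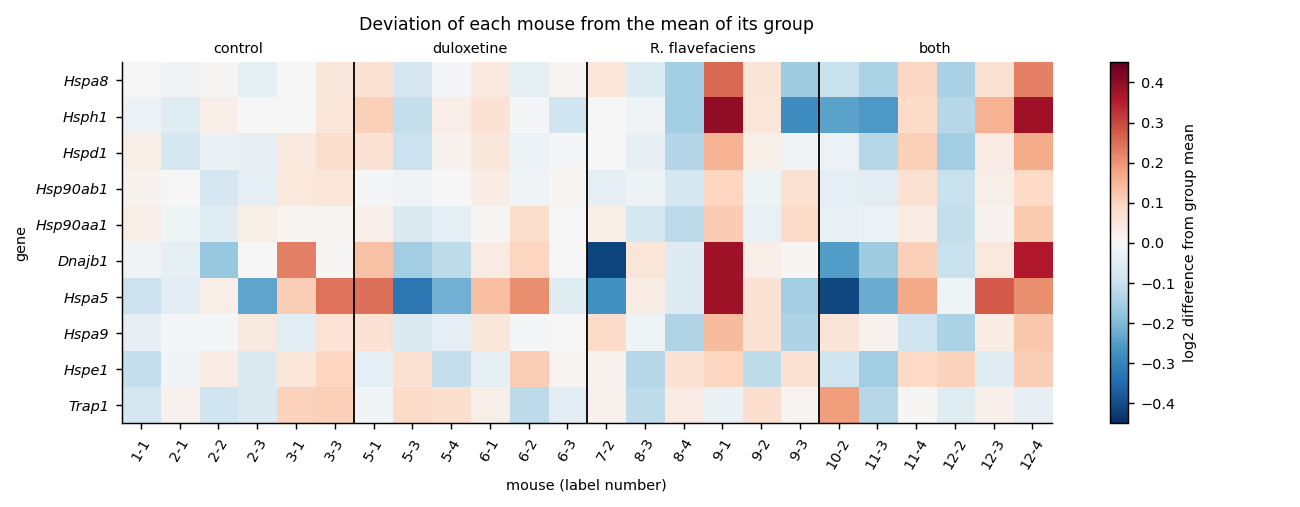
Difference of each mouse (columns, by label number) from the mean of its group on the log2 scale for each chaperone gene (rows), from blue (below) to red (above). Mice 9-1 and 12-4 are red for all rows but *Trap1*, and the strongest colours lie in the *R. flavefaciens* and combined groups.

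The spread between mice was wider in *R. flavefaciens* than in control mice for 9 of the 10 members, and most so for *Hsph1* and *Hspa8*. For *Hsph1* the coefficient of variation was 2.72% in control, 5.84% in duloxetine, 16.8% in *R. flavefaciens* and 18% in combined mice, and for *Hspa8* it was 2.12%, 3.64%, 11.3% and 10.8%. Without mouse 9-1 the *R. flavefaciens* values were 9.22% for *Hsph1* and 7.40% for *Hspa8*, still over those of the control and duloxetine mice. Without that mouse *Hspd1* (4.12%, against 4.13% in control) and *Hspa5* (9.43%, against 11.7% in control) were no longer wider. A wider spread was common in this group: among the 5547 genes whose mean reached 500 normalized counts, 87.5% had a larger coefficient in *R. flavefaciens* than in control mice, with a median ratio of 1.93. The ratio was 6.15 for *Hsph1*, above 96.8% of those genes, 5.32 for *Hspa8*, above 94.2%, and 0.707 for *Trap1*, above 4.04%. These ratios and shares include mouse 9-1. With the coefficients given above without it, the ratios of *Hsph1* and *Hspa8* would be lower, and their shares were not worked out. With *Trap1*, 6 of the 10 members were below the median ratio, the others being *Hspe1* at 1.25, *Hsp90ab1* at 1.34, *Hspa5* at 1.39, *Hspd1* at 1.58 and *Dnajb1* at 1.91. No test was made of these ratios.

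Partners of the members were followed in 7 lists with 128 tested genes, which were set with earlier results of these data known. In mice given both treatments against mice given the bacterium alone, endoplasmic reticulum chaperones were the list with the most genes past the threshold, 6 of 19, all lower, where 2.23% of all genes passed in either direction. Their median log2 fold change was -0.17, and 18 of the 19 were negative. *Sdf2l1*, a partner of HSPA5, fell from 239 ± 34.8 normalized counts with the bacterium alone to 143 ± 28.7 with both (SD, n = 6 each; log2 fold change -0.75, SE 0.16, limma adjusted p = 0.0171). *Manf*, a secreted protein of the endoplasmic reticulum that binds HSPA5, fell from 723 ± 79.1 to 559 ± 45.3 (SD, n = 6 each), and no mouse of the combined group reached the lowest mouse given the bacterium alone (-0.37, SE 0.09, limma adjusted p = 0.0267).

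*Xbp1*, a transcription factor of the unfolded protein response, *Pdia6*, *Dnajb11* and *Herpud1* fell by 0.32, 0.33, 0.24 and 0.30 on the log2 scale (limma adjusted p = 0.0310, 0.0322, 0.0440 and 0.0452). *Creld2* stood at -0.39 (SE 0.14, limma adjusted p = 0.120). *Canx*, the lectin chaperone calnexin, was the 1 gene of the 19 above 0, at 0.01, named after its value was seen. Against control mice the list had a median of 0.06 with the bacterium alone and -0.13 with both, and 0 genes passed in either. At an unadjusted p under 0.05, 14 of 19 were lower than with the bacterium alone, against 9.9% of all genes. The count of 6 fell to 2 with the length trend removed, to 0 in a fit of these 2 groups alone, and to 3, 2, 1 and 0 without mouse 10-2, 12-2, 9-1 and 11-3. The list's median with the length trend removed was -0.15.

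In the cytosolic HSP70 system, 2 of 26 genes passed in that comparison, both lower, where 2.23% of all genes passed in either direction. Of the next 3 lists 1 gene each passed, at the same share of all genes. *Dnajb4*, a J-domain protein, fell from 1089.5 ± 89.0 to 898 ± 78.6 normalized counts (SD, n = 6 each; log2 fold change -0.28, SE 0.06, limma adjusted p = 0.0171), and *Hspa2*, an HSP70 best known from the testis, from 692 ± 85.2 to 569 ± 38 (-0.28, SE 0.07, limma adjusted p = 0.0450). The list's median was -0.09. With the length trend removed 1 gene of the list passed, and the median was -0.06. *Hspa1a* and *Hspa1b*, the heat-inducible HSP70 genes, were named after their values were seen. They were at -0.73 (SE 0.21, limma adjusted p = 0.0633) and -0.63 (SE 0.21, limma adjusted p = 0.11), with 50.8 ± 11.7 and 115 ± 35.3 normalized counts with the bacterium alone and 31.0 ± 9.96 and 75.4 ± 28.2 with both. The 2 genes are nearly identical, so that reads could not be assigned firmly to either.

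Of 18 HSP90 co-chaperones 1 passed, *Fkbp4*, an immunophilin of steroid receptor complexes, which fell from 1771 ± 108 to 1517 ± 131 (SD, n = 6 each; -0.23, SE 0.05, limma adjusted p = 0.0292). It also passed for duloxetine averaged over the bacterium (-0.15, limma adjusted p = 0.0489), but not by edgeR, and over the 24 fits that each left out a mouse the median count of this list was 0. The list's median was -0.12, and -0.08 with the length trend removed. Of 16 chaperonin and prefoldin genes 1 passed, the chaperonin subunit *Cct3*, with 1472 ± 62.6 against 1309 ± 48.5 (SD, n = 6 each; -0.17, SE 0.04, limma adjusted p = 0.0206) and no overlap between the groups, and the median was -0.09. *Hspb1*, a small heat shock protein, was the 1 of 8 heat shock factor and small heat shock protein genes that passed, with 92.7 ± 16.5 against 52.5 ± 13.0 (SD, n = 6 each; -0.82, SE 0.21, limma adjusted p = 0.0361), while the median of that list was -0.01. With the length trend removed the median of the chaperonin and prefoldin genes was -0.07. In a fit of the 2 groups alone 0 genes of these 4 lists passed, and 0 passed without mouse 11-3. Leaving out each mouse in turn, the counts ran from 0 to 4 for the HSP70 system (4 without mouse 12-4) and from 0 to 5 for chaperonin and prefoldin genes (5 without mouse 8-4). For HSP90 co-chaperones the count was 0 also without mouse 9-1, 9-3, 12-2 or 12-3. *Hspb1* did not pass without any 1 of these or without mouse 9-2 or 10-2.

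**Figure D5:**
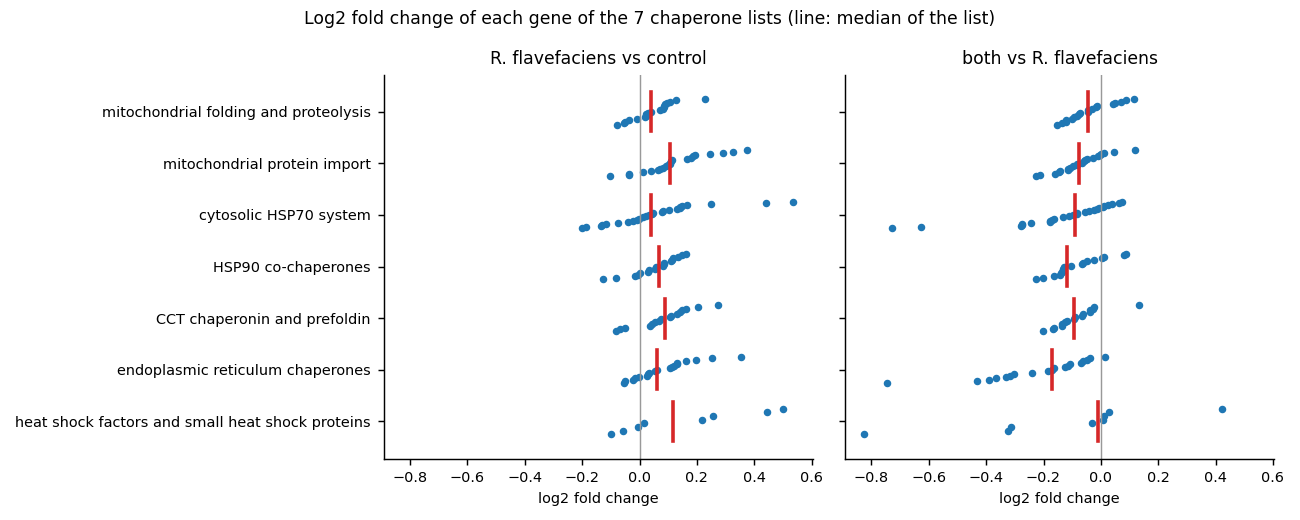
Log2 fold change (horizontal axis) of each gene (point) of the 7 lists, for *R. flavefaciens* against control (left) and both treatments against *R. flavefaciens* (right), with the list's median as a vertical line. In the right panel the endoplasmic reticulum chaperones have the lowest median, -0.17, and the medians of all 7 lists are below 0. With the length trend removed, which is not shown, the median of the heat shock factors and small heat shock proteins was 0.02.

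Mitochondrial lists had no gene past the threshold in any of the 8 comparisons by limma with all mice taken as independent. In *R. flavefaciens* against control, 4 import genes and 1 folding gene passed by DESeq2, by limma with a random block on the first number of the mouse label, and by limma without mouse 8-3, 9-1 or 9-2. These settings also called more of all genes than the 4 called otherwise, namely 497 by DESeq2, 221 with the block, and 427, 239 and 616 without those mice. For the bacterium averaged over duloxetine, DESeq2 called 5 import genes and 1 folding gene, and limma 2 import genes without mouse 8-3. Of all genes these settings called 361 and 135, against 4 by limma with all mice. In both treatments against control, 1 import gene passed by DESeq2, in a fit of those groups alone, and without mouse 9-3. Of all genes, 217 passed by DESeq2 and 196 in that fit, against 15 by limma with all groups and mice. With a mouse left out, 5 to 154 of all genes passed. With the bacterium alone against control, the 22 mitochondrial import genes had a median log2 fold change of 0.11, 19 of them positive, and 7 were higher and 0 lower at an unadjusted p under 0.05 (8.86% and 10.8% of all genes). *Tomm5*, a small subunit of the outer membrane translocase, was at 0.37 (SE 0.09, limma adjusted p = 0.0727), *Timm8b*, of the intermembrane space, at 0.24 (SE 0.05, limma adjusted p = 0.0727), and *Tomm7* at 0.29 against control both with the bacterium alone and with both treatments. With the length trend removed the median of the import genes was 0.06. The 19 folding and proteolysis genes, which work beside *Hspd1* and *Hspa9*, had a median of 0.04, with the protease subunit *Clpp* at 0.23 (SE 0.06, limma adjusted p = 0.0727), and 0.00 with the length trend removed.

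In the same comparison with control, 7 of 16 chaperonin and prefoldin genes were higher and 0 lower at an unadjusted p under 0.05 (8.86% and 10.8% of all genes). The median of the 16 was 0.09, with *Pfdn6* furthest by p at 0.27 (SE 0.07, limma adjusted p = 0.0727). With the length trend removed the median was 0.03. The HSP90 co-chaperone *Nudc* was at 0.16 (SE 0.05, limma adjusted p = 0.0840), the HSP70 exchange factor *Bag1* at 0.15 (SE 0.05), *Fkbp8* at 0.13 (SE 0.06), *Pmpcb* at 0.11 (SE 0.06), *Hspb8* at 0.44 (SE 0.16) and *Hspa12a* at -0.19 (SE 0.07), none past the threshold. By DESeq2, and by limma without mouse 8-3 or 9-2, 1 HSP90 co-chaperone and 1 chaperonin or prefoldin gene passed. The latter list also had 1 with the random block and without mouse 9-1, and the HSP70 system 1 without mouse 9-2. Chosen for the smallest p of their lists in mice given both treatments against control, *Dnajc19* was at 0.24, *Clpb* at -0.12, *Dnaja4* at -0.19, *Sugt1* at -0.12, *Tcp1* at -0.11, *Cct8* at -0.11 and *Hspb3* at 0.68, and none of these passed either. *Hspb3* was near the lowest mean tested, with 11.6 ± 4.65 normalized counts in control and 19.3 ± 7.73 with both treatments (SD, n = 6 each). *Hspb8* was low as well, with means of 34.5 in control and 46.8 with the bacterium alone.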

How the data were processed

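Medial prefrontal cortex RNA of 24 mice was sequenced as poly(A) libraries. By the study's methods, the authors mapped reads with TopHat2 to GRCm38.p5. Per the labels, their processing notes name TopHat2 2.1.0, Bowtie2 2.2.6, DESeq2 1.18.1 and the build mm9, but gene positions in the file are those of GRCm38. The counting program, its strand setting and the filter on genes are not given in the sources used here. The deposited values are normalized counts, a signal made by dividing each mouse's read counts by its DESeq2 size factor. Steps between low values gave back whole reads for 99.989% of values (tolerance 0.0051).

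Differences were tested with limma 3.58.1 (R 4.3.3) on log2(normalized count + 1), a scale that understates changes of low genes, with all 4 groups in 1 fit, a trended prior, genes with a mean of at least 10 (14974 of 15456, all 10 chaperones among them) and Benjamini-Hochberg adjustment at 0.05 in 8 comparisons. The deposited values being normalized, DESeq2 1.42.0 and edgeR 4.0.16 were run on recovered reads as alternatives only. Correlations used 100000 permutations within groups, whose smallest p is 1e-05. The main limma fit, the fit of only the groups compared, the fit with the random block, DESeq2 and edgeR were tested on simulated data. Those data held larger changes than seen here for the members and the same spread in every group. The other settings were not tested in this way. The limma p-values of the main fit set a difference between groups against a spread between mice that is pooled over all 4 groups. Mice that shared a cage were treated as independent.

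The members and lists were chosen with earlier results of these data known. Besides the members, the text names from each list the 2 genes with the smallest p in *R. flavefaciens* against control, the 2 with the smallest in both treatments against control and any that passed in a comparison, and for *Hspe1*, *Hspd1*, *Hsp90aa1* and *Hspa5* the 3 most correlated genes. Of 130 listed genes, 128 were tested. Markers of 9 cell types were summed. Alternatives were 11 settings and the omission of each of the 24 mice in turn. Promoter sequences came from RefSeq (GRCm38.p6), and transcript lengths from GENCODE.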

Additional observations from a re-analysis of the deposited data

How the results depend on the processing

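The median log2 fold changes of the mitochondrial and of the cytosolic members moved by less than the spread between mice under all alternatives run, and no called value changed sign. Values near 0 did change sign. For the bacterium averaged over duloxetine the mitochondrial median ran from -0.02 to 0.02 and the cytosolic from -0.03 to 0.03 over the settings, and with the length trend removed *Hspe1* went from 0.02 to -0.09 in both treatments against control and from 0.11 to -0.00 for the bacterium averaged. In *R. flavefaciens* against control, 1 member (*Hspe1*) was called in place of 0 by DESeq2, with a random block on the first number of the mouse label (estimated correlation within blocks -0.0451), and at an adjusted p under 0.1, and between 0 and 1 when a mouse was left out, the call appearing without mouse 8-3, 9-1 or 9-2. In both treatments against *R. flavefaciens*, 0 in place of 2 were called in a fit of only these groups, and between 0 and 3 when a mouse was left out, with 0 without mouse 11-3. For duloxetine averaged over the bacterium the range was 0 to 1, with 0 without mouse 11-3 or 3-1.

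Counts over all genes moved more. In *R. flavefaciens* against control, 4 genes were called by limma and 497 by DESeq2, 221 with the block, 0 in the fit of these groups alone, and 0 to 616 when a mouse was left out (616 without 9-2, 427 without 8-3, 239 without 9-1). In both treatments against control the counts were 15 and 217, 196 in the fit of these groups alone, and 5 to 154 when a mouse was left out (154 without 12-4). In both treatments against *R. flavefaciens* they were 334 and 610, 0 in the fit of these groups alone, and 47 to 577 when a mouse was left out. For duloxetine averaged over the bacterium they were 154 and 317, with 46 to 260. The causes were not tested. No paired analysis was possible because the groups share no replicate numbers. Which members depth limits was not tested.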
